A study of Homo sapiens with 8 samples.

Results

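LRRC8C and SDC2 are a pair of genes for cell-surface proteins whose bodies were rich in regions of differential H3K79me2 between MOLM-13 cells with a control hairpin and cells with a hairpin against the long noncoding RNA LAMP5-AS1. They were chosen by their high number of H3K79me2 regions, so that number is a description here and not a finding. All rows of the deposited H3K79me2 and H3K79me3 tables that named either gene in a promoter, exon, intron or UTR were taken, which gave 52 of 22412 regions. LRRC8C held 22 H3K79me2 and 6 H3K79me3 regions, and SDC2 held 19 and 5. The cells compared were MOLM-13, an acute myeloid leukemia line with an MLL fusion, carrying shNC or shLAMP5-AS1. Each mark and hairpin had 1 ChIP and 1 input library. The transfection field calls the shNC samples a control siRNA, and other label fields describe a xenograft culture and other knockdowns; the titles and the cell type were followed. How the hairpins were delivered, whether the cells were a clone, and the time of harvest are not given in the sources used here. The tables hold no RNA and no signal per library, so neither the knockdown nor the identity of the cells can be checked in them.

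LRRC8C is a subunit of the volume-regulated anion channel, which opens when a cell swells and lets chloride and small organic solutes leave. The channel is built from LRRC8A, which it cannot do without, together with LRRC8B, LRRC8C, LRRC8D or LRRC8E, and the partner sets which solutes pass. SDC2 encodes syndecan-2, a transmembrane core protein that carries heparan sulfate chains, binds growth factors and matrix proteins outside the cell, and holds adaptors such as syntenin with its short tail. H3K79 methylation is written by DOT1L and lies over the transcribed part of active genes, most densely near the start, and MLL fusion proteins bring DOT1L to their target genes.

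LRRC8B, LRRC8C and LRRC8D stand next to each other on chromosome 1, and their start sites are shown because the regions described below differed between LRRC8C and these neighbours of its family. The 30 bases centred on each annotated start are from RefSeq (GRCh38.p14, plus strand, 5′ to 3′), with CpG dinucleotides, the letters CG on either strand, in capitals. LRRC8D has a further annotated start that is not printed.
LRRC8B, chr1:89524814-89524843: CGcCGcCGagCGcccattggccagCGgaac
LRRC8C, chr1:89633105-89633134: ttgCGgggctggggCGttagctgCGtccCG
LRRC8D, chr1:89821017-89821046: tgttaCGctttgtctaattcccctCGttac
The 300-base window around the LRRC8C start, from 250 bases before to 50 after, held 43 CpGs, and 4.98% of the 35116 RefSeq windows held at least as many. The LRRC8B window held 28 CpGs and the LRRC8D window 29, against a median of 14 over all windows. A CpG count describes the letters only. No region of either mark was annotated to the promoter of LRRC8C or SDC2 itself.

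All 22 H3K79me2 regions of LRRC8C had a positive score, where 44.7% of all H3K79me2 regions were positive. Neither the labels nor the files say which condition a positive score favours, so signs stand as deposited and no gain or loss is stated. LRRC8C had the third highest number of positive H3K79me2 regions of 3665 genes. The regions formed an unbroken run of 22 along chromosome 1, with no negative region among them, over 83.3 kb. They were short, with widths of 68 to 225 bp and a median of 94, and covered 2.84% of the run. Gaps between them ranged from 0.13 to 16.3 kb, with a median of 3.06 kb.

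The run in LRRC8C began in an intron at 90100030 to 90100116, with a score of 8.74 per the authors' deposited table. Positions of regions are as deposited, in a build other than the GRCh38 of the start sites above (hg19 is the remaining build in the submitters' notes). This first region lay on a CpG island shore and was also annotated to the promoter of FLJ27354, the only one of the 22 that named another gene. In the introns the authors' deposited table reached 18.37, at 90139983 to 90140139. The region of largest score closed the run, annotated to exon and 3′ UTR at 90183230 to 90183304, with 22.83 per the authors' deposited table. The region before it, exonic at 90179706 to 90179849, scored 10.19 per the authors' deposited table. The other scores lay between 5.95 and 14.1 per the authors' deposited table. The highest scores were spread along LRRC8C: those of 14.1, 18.37 and 22.83 per the authors' deposited table stood 5.06, 39.95 and 83.2 kb from the first region.

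SDC2 gave the same sign. All 19 of its H3K79me2 regions were positive, the sixth highest number of positive regions among the 3665 genes, and they too formed an unbroken run, over 108 kb of chromosome 8. All 19 were intronic. Widths were 70 to 207 bp, with a median of 128 against 91 for all positive H3K79me2 regions. Only a small part of the run, 2.23%, was covered, and the gaps reached 25.82 kb.

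The SDC2 run opened at 97508735 to 97508942, on the shore of a CpG island, with a score of 11.45 per the authors' deposited table, and a second shore region 0.11 kb further on had 15.43. The third region, at 97524319 to 97524394, had 30.1 per the authors' deposited table, which ranked 4th of the 3911 positive H3K79me2 scores. Further into the introns, 97543442 to 97543632 had 18.37 and 97576172 to 97576300 had 20.12 per the authors' deposited table. The last 9 regions, from 97594720 on, had scores of 6.68 to 12.52 per the authors' deposited table. Scores above 12.52 per the authors' deposited table stood on both sides of the middle of the SDC2 run, and the last of them, 14.47, stood 71.78 kb from the first region of either mark.

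**Figure D1:**
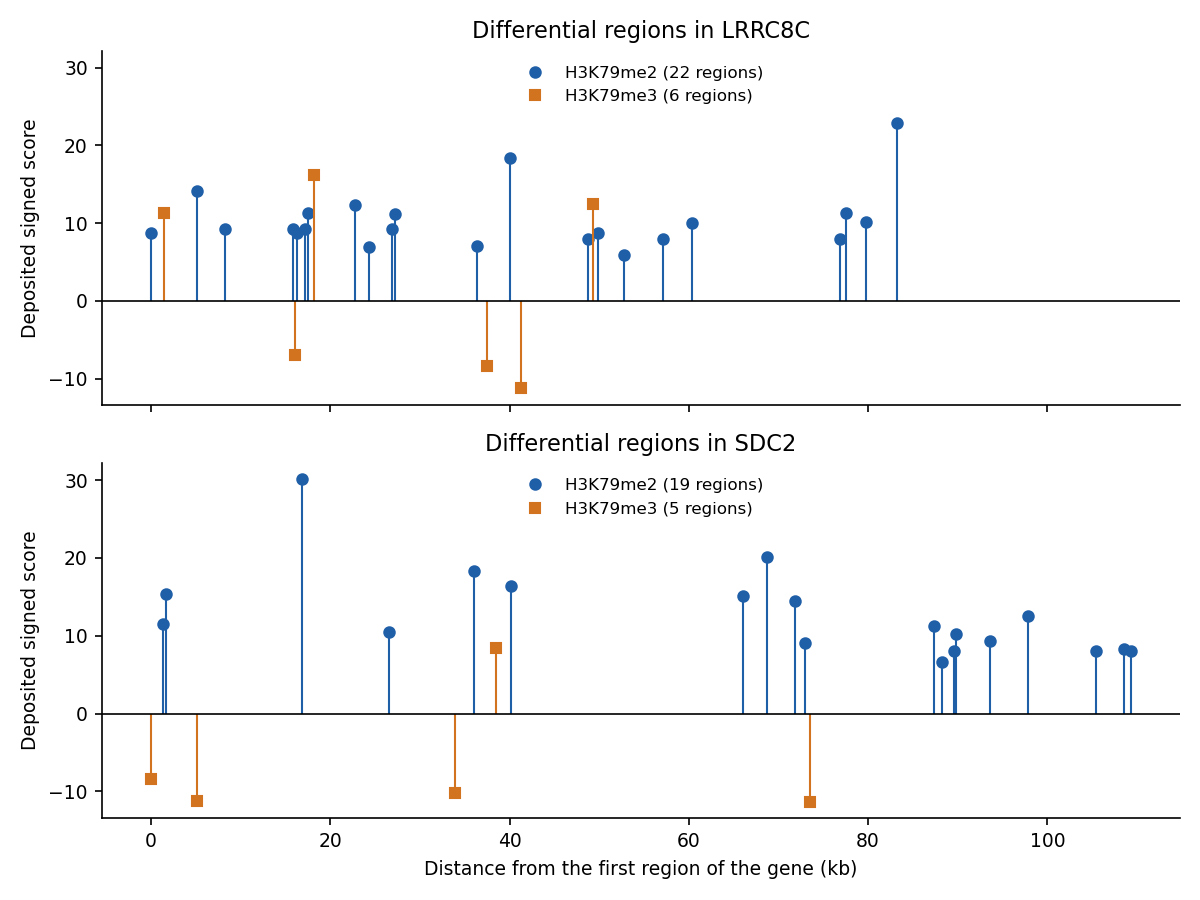
Signed score of the authors' deposited table (vertical axis, no unit) for every region of LRRC8C (top) and SDC2 (bottom) against its distance in kb from the first region of the gene. Circles are H3K79me2 and squares H3K79me3; all 22 and all 19 circles lie above 0, while the squares lie on both sides.

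The sizes of the scores differed between the genes. The median H3K79me2 score was 9.25 for LRRC8C and 11.21 for SDC2 per the authors' deposited table, against 10.19 for all positive regions. Scores of at least 10 were held by 9 of 22 regions in LRRC8C (40.9%) and 12 of 19 in SDC2 (63.2%), with 52.6% among all positive regions. Regions of 1 gene come from the same libraries and are no replicates, so these differences have no test.

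The scores could be read further. Their sizes match -log10 of Poisson probabilities of exceeding a whole-number pileup, the number of reads stacked at a position, given a smaller comparison value. Within a tolerance of 0.0075 on the score, such a match was found for all 52 regions and for 98.0% of all positive H3K79me2 regions. Of all values with 2 decimals between 5 and 31, 27.3% have one. The match rate depended on the tolerance. At 0.005, LRRC8C had a match in 21 of 22 H3K79me2 and 6 of 6 H3K79me3 regions, and SDC2 in 18 of 19 and 4 of 5. Over all positive H3K79me2 regions it was then 3606 of 3911. A score of 10.19, held by 222 positive H3K79me2 regions, had no match at 0.005. The reading is an inference from the values, the tables do not state it, and it does not tell which library gave which value. A single match was found for 20 of the 22 H3K79me2 regions in LRRC8C and 16 of the 19 in SDC2, and only these are used below.

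On this reading the lower value in LRRC8C was often above background. The comparison value was 3 or more in 14 of 20 regions (70.0%), against 699 of the 3043 positive H3K79me2 regions with a single match in the whole table. The first region was read as a pileup of 27 against 7, a ratio of 3.86 with an exact 95% interval of 1.64 to 10.5 from counting error alone. The interval treats both values as read counts. Regions are listed by the same scores, which selects large ratios, so the intervals are no test of a difference. The region with the score of 14.1 per the authors' deposited table was read as 35 against 7 (ratio 5.0, interval 2.19 to 13.3). The region with 18.37 per the authors' deposited table was read as 28 against 3 (ratio 9.33, interval 2.88 to 48.0). The median pileup in LRRC8C was 19 and the median ratio 6.0, where all positive regions had 14 and 11.1. The pileup in LRRC8C was thus higher and the ratio lower than over all positive regions, a difference that has no test.

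For SDC2 the comparison value was 3 or more in 7 of 16 regions (43.8%). Its second region, on the CpG island shore, was read as 53 against 14, a ratio of 3.79 with an interval of 2.07 to 7.39. No positive H3K79me2 region with a single match was read with a higher pileup than 53. Comparison values were tried only up to 15, so readings beyond that limit could not be found. The region with the score of 30.1 per the authors' deposited table was read as 39 against 3 (ratio 13.0, interval 4.13 to 65.8). The region with 20.12 per the authors' deposited table was read as 20 against 1 (ratio 20.0), with an interval from 3.2 to 829. The median pileup was 18 and the median ratio 9.0. A comparison value of 1 leaves the ratio of a single region almost unbounded above.

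Median pileups were higher toward the start of both runs, though single regions further on were also high. LRRC8C and SDC2 are transcribed in the direction in which positions increase. Up to 41.6 kb from the first region, the 13 LRRC8C regions had a median pileup of 27 and a median comparison value of 6.0, with 11 of 13 at 3 or more. Beyond it, the 7 of 9 regions with a single match had medians of 13 and 1.0, with 3 of 7 at 3 or more. Left out there were the regions with the largest and smallest LRRC8C scores, 22.83 and 5.95 per the authors' deposited table. The largest closes the run, and its pileup was not read. In SDC2 the split at 55.3 kb gave median pileups of 28 and 14 and median comparison values of 3.0 and 1.0, over 5 and 11 regions. The median ratio went the other way, from 5.0 to 10.0 in LRRC8C and from 8.67 to 10.0 in SDC2. A region is listed only once its score passes about 5, which takes a larger pileup where the comparison value is larger, so the values are not independent, and stretches that were not called are not seen.

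**Figure D2:**
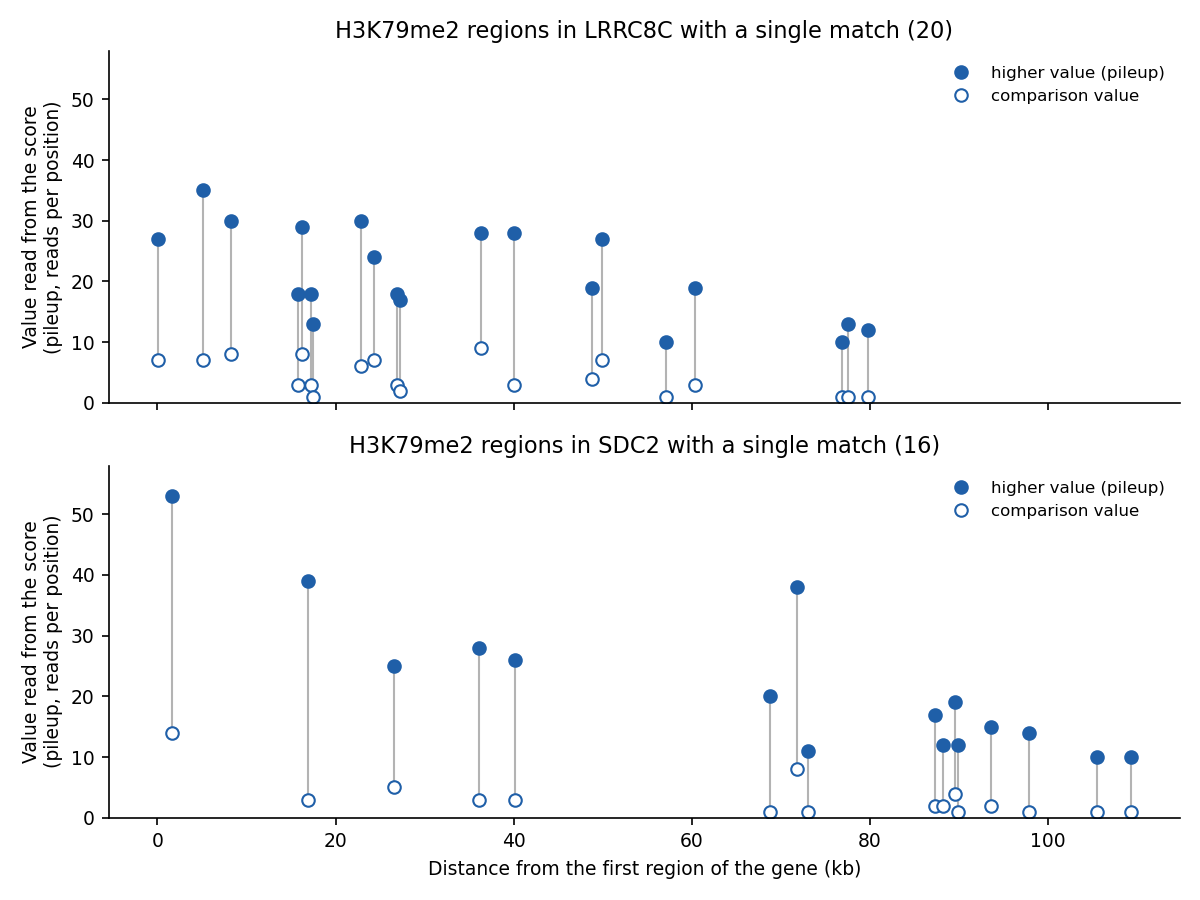
Pileup (filled circles) and comparison value (open circles), both read from the H3K79me2 scores, against distance in kb from the first region of the gene, for the 20 LRRC8C (top) and 16 SDC2 (bottom) regions with a single match; grey lines join the values of a region. The medians of both values are larger toward the start, and SDC2 has 53 against 14 near its start and 10 against 1 at its end. Single regions further on are also high, with 38 against 8 at 71.84 kb in SDC2 and 27 against 7 at 49.918 kb in LRRC8C. The closing LRRC8C region, which has the largest score of the gene, had no single match and is not shown.

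Of 410 genes with at least 5 H3K79me2 regions, 35 (8.54%) had positive regions only, LRRC8C and SDC2 among them. Regions of 1 sign were common among genes as rich in regions as the pair. Of the 43 genes with at least 15 H3K79me2 regions, 8 had positive regions only, 12 negative only and 23 both. By the number of all H3K79me2 regions LRRC8C was 9th and SDC2 18th of 3665 genes. Both places rest on clusters of regions close together. After regions of 1 sign within 5 kb were merged, LRRC8C held 6 and SDC2 7, and their places were 101 and 69. The chromosome around each gene did not share the sign: without LRRC8C, 42.8% of the 759 H3K79me2 regions of chromosome 1 were positive, and without SDC2, 40.1% of the 548 regions of chromosome 8.

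**Figure D3:**
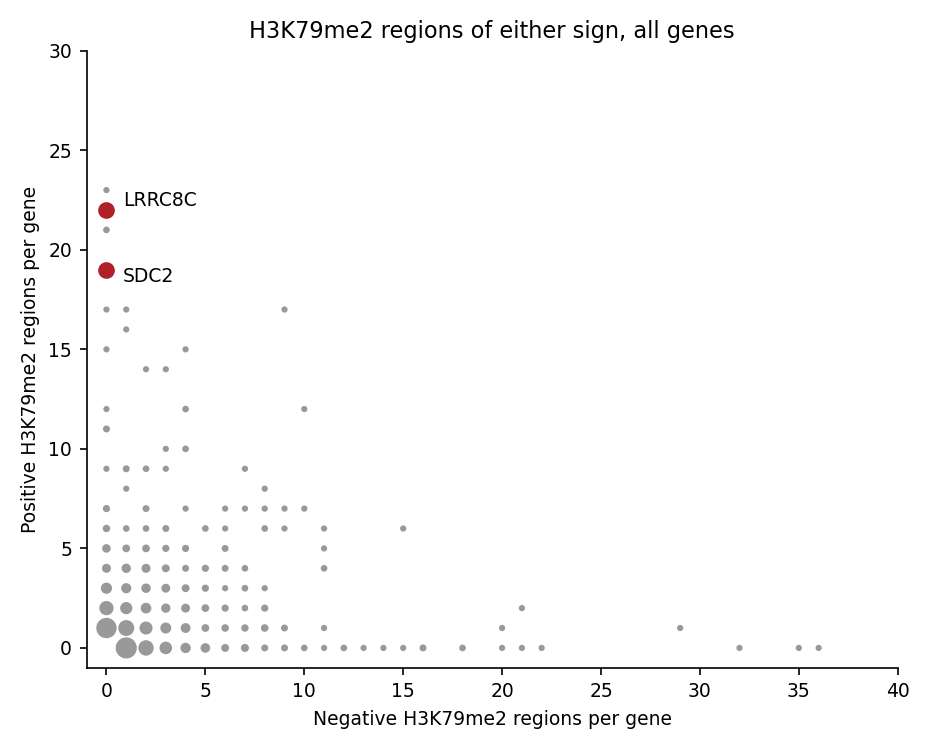
Number of positive (vertical) against negative (horizontal) H3K79me2 regions per gene; dot size grows with the number of genes at a point, and 1 gene with more positive regions than the axis holds is not shown. LRRC8C (22 and 0) and SDC2 (19 and 0) lie on the vertical axis, with positive regions only.

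H3K79me3 was not used in choosing the genes, and here the genes differed in sign. LRRC8C had 3 positive and 3 negative H3K79me3 regions, where 2.47% of all H3K79me3 regions were positive. Per the authors' deposited table, the positive scores were 11.34, 16.22 and 12.52, at 90101443 to 90101551, 90118216 to 90118279 and 90149271 to 90149338. The negative scores were -6.95, -8.41 and -11.21 per the authors' deposited table. Positive and negative H3K79me3 regions were interspersed along LRRC8C. Only 4 of 4045 genes had 3 or more positive H3K79me3 regions, and PDE7A, a phosphodiesterase that breaks down cAMP, with 3 positive and 7 negative, and FAF1, with 4 and 36, were among the others. By its number of H3K79me3 regions LRRC8C was 435th.

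SDC2 followed the common H3K79me3 sign more closely, with 4 negative regions and 1 positive region. The first negative region lay in an intron and inside a CpG island, at 97507485 to 97507556, with a score of -8.44 per the authors' deposited table. The other negative scores were -11.21, -10.19 and -11.34, and the positive one, at 97545879 to 97545964, was 8.44 per the authors' deposited table. The H3K79me2 and H3K79me3 tables therefore gave opposite majority signs over SDC2, 19 positive regions against 4 of 5 negative. This is not particular to SDC2, since 3814 of 4045 genes with an H3K79me3 region had negative ones only. GAB2, RSRC1 and PDE7A, also with positive H3K79me2 regions only, had 3, 4 and 7 negative H3K79me3 regions against 1, 1 and 3 positive.

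No H3K79me2 region overlapped an H3K79me3 region in LRRC8C or SDC2 by 1 bp or more. In LRRC8C, 3 of 6 H3K79me3 regions lay within 1 kb of an H3K79me2 region. The closest was the negative H3K79me3 region at 90116097 to 90116176, which ended 84 bp before a positive H3K79me2 region and started 222 bp after another. Regions of opposite sign of the marks thus lay side by side in the same intron stretch. The positive H3K79me3 regions at 90118216 and 90149271 lay 655 and 427 bp from H3K79me2 regions of the same sign. In SDC2, 1 of 5 was that close, a negative H3K79me3 region 407 bp from a positive H3K79me2 region. The H3K79me3 regions with a single match, 5 in LRRC8C and 3 in SDC2, were read with comparison values of 1 or 2 and pileups of 9 to 17 at a tolerance of 0.0075 on the score. In SDC2 this depended on the tolerance: at 0.005 the first negative region and the positive region also had a single match, each with a comparison value of 14, and 1 of the other 3 had none.

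The neighbours did not carry the runs. Within 500 kb of the LRRC8C regions there were 9 further H3K79me2 regions, 4 positive and 5 negative. Every region in the window lay in a gene. LRRC8B had 2 negative H3K79me2 regions, the larger -11.6 per the authors' deposited table, 95.5 kb before the first LRRC8C region. LRRC8D had 3 positive and 2 negative regions, its largest score -10.93 per the authors' deposited table. ZNF326, a zinc finger gene, had 1 of each sign, at 10.19 and -10.19 per the authors' deposited table. For H3K79me3, LRRC8D had 1 negative region and ZNF326 had 2, with a largest score of -17.36 per the authors' deposited table; 1 of these also named the pseudogene GEMIN8P4 (-8.0 per the authors' deposited table). LRRC8B had no H3K79me3 region. The interferon-induced GTPase genes GBP4, GBP5 and GBP6 before LRRC8B had no region of either mark.

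Around SDC2 the nearest gene with regions was PTDSS1, a phosphatidylserine synthase gene, with 1 positive and 3 negative H3K79me2 regions. The closest of these regions lay 214 kb from the first SDC2 region of either mark. The largest H3K79me2 score of PTDSS1 was -16.32 per the authors' deposited table. PTDSS1 also had 4 negative H3K79me3 regions, and UQCRB, a subunit of respiratory complex III, had 3, the largest -17.39 per the authors' deposited table. CPQ, a carboxypeptidase gene directly beyond SDC2, and MTERF3 had no region of either mark. Positive H3K79me2 regions in the window numbered 20, of which 19 were those of SDC2.

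**Figure D4:**
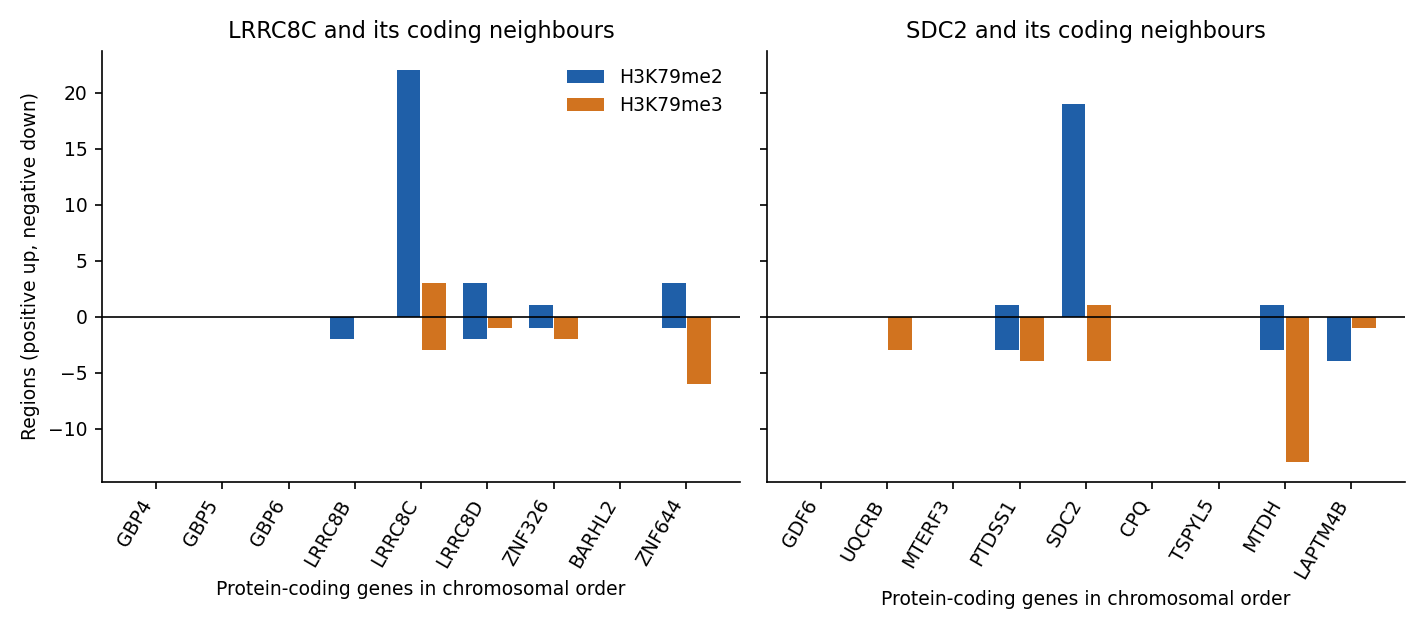
Positive regions (bars up) and negative regions (bars down) of H3K79me2 (blue) and H3K79me3 (orange) for LRRC8C, SDC2 and the 4 protein-coding genes on either side of each, in chromosomal order. The tall upward bars, 22 and 19 regions, stand at LRRC8C and SDC2 alone, the genes chosen for their number of H3K79me2 regions. LRRC8B has 2 negative regions and LRRC8D 3 positive and 2 negative.

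The other members of both families held fewer regions than LRRC8C and SDC2. The pair was chosen for its number of H3K79me2 regions, so this difference follows from the choice and is a description only. Of all protein-coding genes in RefSeq, 16.7% had an H3K79me2 region and 17.6% an H3K79me3 region. Of the 5 LRRC8 genes, LRRC8B, LRRC8C and LRRC8D had an H3K79me2 region, and LRRC8C held 22 of their 29 regions. LRRC8D, with 5, was also above the median of 1.0 region over all genes with an H3K79me2 region, and 410 of 3665 genes had at least 5. LRRC8A, the obligatory subunit, and LRRC8E had none of either mark. Of the 10 syndecans and glypicans, the cell-surface carriers of heparan sulfate, SDC2 was the only gene with a region in either table. The median of the gene medians was 6.68 for the LRRC8 genes and -5.86 over all genes with an H3K79me2 region, with 3 genes behind the former. LRRC8C itself is one of them, with a median of 9.25, beside 6.68 for LRRC8D and -9.14 for LRRC8B. The family value is therefore no finding apart from the chosen gene.

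Of the genes that make and edit heparan sulfate, the chains that SDC2 carries, 4 of 30 had an H3K79me2 region, close to the 16.7% over all protein-coding genes, with 2 positive and 7 negative regions in all. H3K79me3 regions were found in 2 of 30, both negative, where 17.6% of all protein-coding genes had one. XYLT1, which starts the chain on the core protein, had 4 negative regions and 1 positive region for H3K79me2 and a largest score of -16.22 per the authors' deposited table. PAPSS1, which makes the sulfate donor, had 1 of each sign. FAM20B, a xylose kinase, had -10.25 and GLCE, the glucuronyl epimerase, -10.37 as single H3K79me2 scores per the authors' deposited table. For H3K79me3, NDST1, which prepares chains for sulfation, had -8.32 and GLCE -6.06 per the authors' deposited table. Over the heparan sulfate genes the median of the gene medians was -9.12 for H3K79me2 and -7.19 for H3K79me3, beside -5.86 and -9.91 over all genes with a region.

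Of 24 partners of syndecans, 9 had an H3K79me2 region, where 16.7% of all protein-coding genes had one. They held 10 positive and 10 negative regions in all. Positive regions only were found in 4 of the genes, negative only in 4 and both in 1. The median of the gene medians was 8.97. RHOA, a GTPase of the actin cytoskeleton, had 4 positive regions, while SDCBP, which encodes syntenin, had 4 negative regions. RAC1 had 2 positive regions and 1 negative region, the integrin gene ITGB1 had 3 negative and the sheddase gene ADAM10 had 2 positive. PDCD6IP, an adaptor of vesicle budding that binds syntenin, had a single positive region at 14.96 per the authors' deposited table. For H3K79me3 all 56 regions in 9 of the 24 genes were negative (median -11.34). Among them were 17 in ITGA4, 13 in RHOA, 6 each in RAC1 and ADAM10, 4 in SDCBP and 3 in ITGA5. SDCBP had the largest of these scores, -25.61 per the authors' deposited table. With 2.47% of all H3K79me3 regions positive, a count of 0 in these partners is near the whole table and is no contrast to SDC2.

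Of 18 genes of cell volume and chloride transport, the setting of LRRC8C, 7 had a region for each mark. Over all protein-coding genes, 16.7% had an H3K79me2 region and 17.6% an H3K79me3 region. In the genes of this list H3K79me2 gave 8 positive and 5 negative regions, and the median of the gene medians was 6.01. Of these regions, 3 were in the WNK-activated kinase gene OXSR1 (2 negative) and 3 in the chloride intracellular channel gene CLIC4 (2 positive). WNK1, a kinase that senses chloride, had 1 region of each sign. SLC12A7, a potassium-chloride cotransporter gene, had 12.68 and TTYH3 14.96 as single scores per the authors' deposited table. For H3K79me3 all 60 regions of the list were negative, close to the whole table with its 2.47% of positive regions. The median of the gene medians was -10.19. Of the 60 regions, 43 came from WNK1 alone, with a largest score of -27.64 per the authors' deposited table. CLIC1 had 6, CLIC4 and CLNS1A 3 each, and ANO6 and TTYH3 2 each. No gene of this list had a number of H3K79me2 regions near that of LRRC8C, which was chosen for that number.

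By the counts of positive and negative regions of both marks, LRRC8C was nearest to GAB2 and PDE7A, each at a distance of 1.0, then RSRC1 (1.05), SDC2 (1.07) and ERBB2IP (1.85). The distance is Euclidean over log2 of the 4 counts plus 1. SDC2 was nearest to RSRC1 (0.14), then GAB2 (0.42), LRRC8C (1.07), PDE7A (1.22) and ERBB2IP (1.32). GAB2, an adaptor of growth factor receptors, had 23 positive H3K79me2 regions and RSRC1 had 21, both with none negative. RSRC1 matched SDC2 in H3K79me3 with 1 positive and 4 negative regions. The likeness is over counts of 4 ChIP libraries in 2 tables.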

How the data were processed

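Chromatin from MOLM-13 cells carrying shNC or shLAMP5-AS1 was profiled by ChIP-seq, with 4 ChIP and 4 input libraries and 1 library of each kind per mark and condition, so no test between conditions exists. Per the submitters' processing notes, the authors' tools included DESeq2, MACS2 2.1.1, Bowtie2 and bedtools, with hg19, hg38 and GRCh38 as builds; their order, the threshold of the calls and the step that made the tables are not given in the sources used here. Each deposited table lists regions with a signed score made by the authors, whose unit and sign are not defined in the file headers.

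A region belonged to LRRC8C or SDC2 when its promoter, exon, intron or UTR columns named the gene. All 52 positions lay on the right chromosome and outside the GRCh38.p14 bounds of the genes, so they are given as deposited, in a build that is not GRCh38. Names and gene order came from RefSeq. Score sizes were matched to -log10 of the Poisson probability of exceeding a whole number k, with comparison values of 1 to 15 or a fitted background (0.722 for positive and 0.767 for negative H3K79me2 regions, 0.688 and 0.711 for H3K79me3) and a tolerance of 0.0075. Intervals are exact binomial and cover counting error only. Depth is unknown.

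The members and gene lists were chosen with earlier results of these data known. Named genes were the pair, symbols with a region within 500 kb, up to 6 members per list and mark with a region (by number of regions, then score size), and the 5 nearest genes over 4 region counts; 1 such gene is not reported here. Regrouping, merging and counting were tested on simulated data. FAF1 and the genes of the closing group were named after their values were seen. Alternatives were a limit of 10 on the score size, merging within 5 kb, other annotation columns and regions per kb; a tolerance of 0.005 and peers without the pair were added after seeing the data. Tables were handled with pandas 2.3.3 and numpy 2.4.6 in Python 3.11.15, probabilities with scipy 1.17.1 and plots with matplotlib 3.10.9.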

Additional observations from a re-analysis of the deposited data

How the results depend on the processing

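No sign of a majority was reversed by any alternative. With a score size of at least 10, H3K79me2 left 9 regions in LRRC8C and 12 in SDC2, all positive (net 9 and 12). For H3K79me3 the same limit left 3 regions in SDC2 and a net of 2 positive regions in LRRC8C. Merging within 5 kb left 6 H3K79me2 regions in LRRC8C and 7 in SDC2 (net 6 and 7) and an H3K79me3 net of 1 in LRRC8C. The even split of H3K79me3 signs in LRRC8C is therefore a tie that either alternative tips to the positive side. Adding the 2 kb upstream and downstream columns changed no count. Leaving out regions that name another gene left 21 H3K79me2 regions in LRRC8C and changed none of the other counts. With distances under 1 kb in place of overlap, 3 H3K79me3 regions in LRRC8C and 1 in SDC2 were shared.

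Places among genes moved most. By H3K79me2, merging moved LRRC8C from 9th to 101st and SDC2 from 18th to 69th of 3665 genes. By regions per kb of the span, given only for the 410 genes with at least 5 regions, LRRC8C was 55th and SDC2 111th, places that cannot be set against those over 3665 genes. By H3K79me3 merging moved LRRC8C from 435th to 66th and SDC2 from 551st to 108th of 4045 genes. With a tolerance of 0.005, an alternative chosen after seeing the data, 14 LRRC8C and 8 SDC2 H3K79me2 regions were read with a comparison value of at least 3, and 2 SDC2 H3K79me3 regions in place of 0. Without LRRC8C and SDC2, genes with 15 to 23 H3K79me2 regions that were all positive held 5 positive H3K79me3 regions in place of 9. No paired analysis was possible because each mark and condition has 1 ChIP library. Depth is unknown, and comparison values of 1 or 2 limit single regions.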

Other observations

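LRRC8C and SDC2 belong to 7 genes with 15 to 23 H3K79me2 regions that were all positive, with GAB2, RSRC1, PDE7A, DYNC1I1 and the noncoding MIR181A1HG. These genes were put together after their values were seen, so the following is a description with no test. In H3K79me3 they held 30 regions, 9 of them positive, in 5 of the 7 genes. Without LRRC8C and SDC2 the other 5 genes held 19 H3K79me3 regions, 5 of them positive, in 3 genes. DYNC1I1, a dynein intermediate chain gene, with 17 H3K79me2 regions, and MIR181A1HG, with 15, had no H3K79me3 region.

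The genes of this group differed in how they were read from the score. Of the H3K79me2 regions with a single match, the comparison value was 3 or more in 75.0% for PDE7A (9 of 12), 70.0% for LRRC8C (14 of 20) and 43.8% for SDC2 (7 of 16). This share was 18.2% for MIR181A1HG (2 of 11), 15.4% for RSRC1 (2 of 13), 6.67% for DYNC1I1 (1 of 15) and 5.88% for GAB2 (1 of 17). Regions without a single match are left out, so the shares rest on small and unequal numbers. Over the 43 genes with at least 15 H3K79me2 regions the median of this share was 22.2% and its range 0.0 to 75.0%, and LRRC8C was 5th and SDC2 10th. GAB2 and PDE7A, at the same distance from LRRC8C by counts of regions, were thus far apart in this share.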
